A study of Homo sapiens with 2 samples.

Results

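The desmosome is a spot-like junction that ties the intermediate filaments of neighbouring epithelial cells together. Its components were followed here in SW48 cells, a human line established from colorectal cancer, on 2 arrays: 1 of cells given a negative control small interfering RNA (siControl) and 1 of cells given an siRNA against YY1 (siYY1). YY1 binds DNA through zinc fingers and acts as an activator of some genes and a repressor of others. Each siRNA was used at 5 nmol/L, delivered with a lipid reagent, and RNA was isolated after 3 days of culture. The knockdown used 1 siRNA product in 1 cell line, and since the level of YY1 was not analysed here, the depth of the knockdown was not checked. The 10 genes were chosen by symbol: the cadherins DSC2, DSC3, DSG2 and DSG3, the armadillo proteins JUP, PKP2, PKP3 and PKP4, the plakin DSP and the membrane protein PERP. All 10 were among the 17687 named genes on the arrays, with 1 probe set each.

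In a desmosome, desmogleins (DSG) and desmocollins (DSC) bind their partners on the next cell across the gap. Their tails hold plakoglobin (JUP) and plakophilins (PKP), and these bind desmoplakin (DSP), which grips the keratin filaments. Simple epithelia such as that of the colon make their desmosomes mainly with DSG2 and DSC2, while DSG3 and DSC3 belong to stratified epithelia such as skin. Inherited defects of DSP, PKP2, DSG2, DSC2 and JUP also cause arrhythmogenic cardiomyopathy, since heart muscle joins its cells with the same proteins.

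Each group had a single array, so no spread between replicates could be measured, no test was run, and every difference describes these arrays alone. Levels are deposited values taken as log2, and every difference is siYY1 minus siControl. A gene was kept if its mean level over the arrays reached 7.54, the median for named genes, and 8844 genes did. A difference of at least 1.5-fold (0.58 on the log2 scale) was counted as past the rule. Of the kept genes, 6.82% were past it (3.04% higher and 3.78% lower in siYY1), and the median difference over the kept genes was 0.00. ACTB differed by 0.11 and GAPDH by -0.03. Of 13 colon epithelial markers, 9 were kept, EPCAM, CDH1, KRT8, KRT18, KRT19, CDX2, CDH17, CLDN3 and CLDN7. The remaining 4, VIL1, CDX1, LGALS4 and GPA33, lay under the filter on these arrays. None of 9 stratified squamous, 10 leukocyte, 8 endothelial or 7 cardiac muscle markers was kept, and of 8 fibroblast markers only COL1A2 was.

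DSC2 was 1.74-fold higher in siYY1 and PERP 1.61-fold lower. The other kept members, DSG2, DSP, JUP, PKP2 and PKP4, lay between -0.18 and 0.12. DSC3, DSG3 and PKP3 were below the filter. Thus 7 of the 10 genes were kept, 1 of them past 1.5-fold upwards and 1 downwards, and the median difference of the 7 was 0.02. The 7 spanned 1.48 on the log2 scale, from PERP, the lowest, to DSC2, the highest, and the other 5 spanned 0.30. All 7 kept members were also among the 4422 brightest genes (mean of at least 10.83), of which 4.61% were past 1.5-fold.

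**Figure D1:**
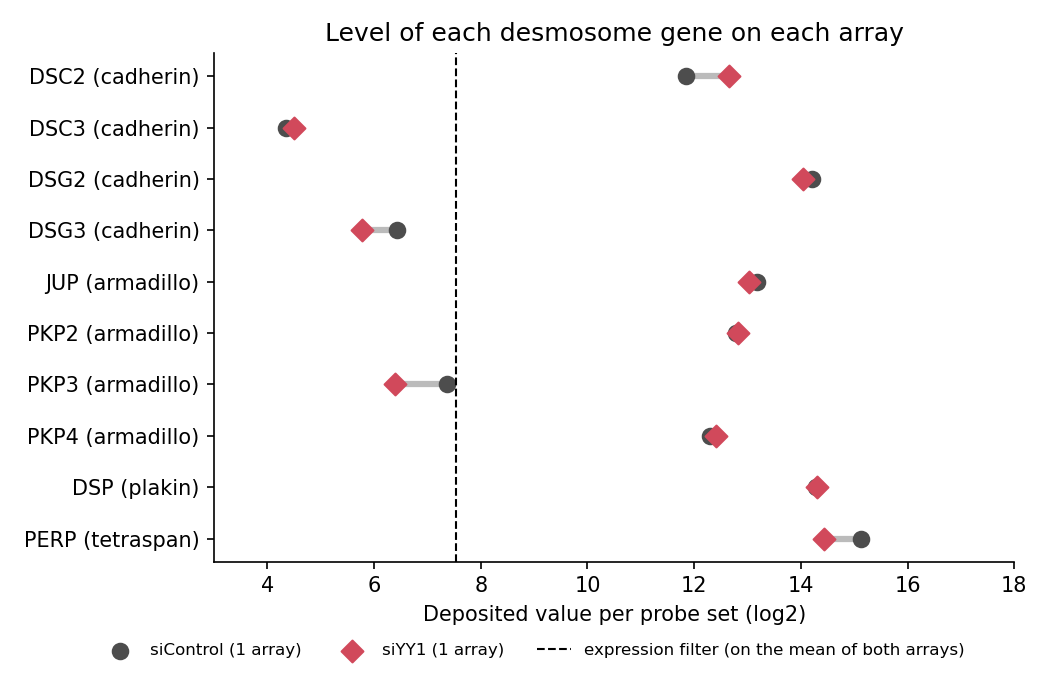
Deposited level, taken as log2, of each of the 10 desmosome genes (horizontal axis). Grey circles are the siControl array and red diamonds the siYY1 array, 1 array each, with the filter value of 7.54 as a dashed line. DSC2 lies to the right in siYY1 and PERP to the left, DSC3, DSG3 and PKP3 lie left of the dashed line on both arrays, and the symbols of the other 5 genes nearly touch.

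The stretches just upstream of the genes' starts are shown for DSC2 and PERP, the kept members past 1.5-fold, and for DSG2, the partner of DSC2, which held the only match to a YY1 core motif. Each is the 250 bases before the annotated start, 5′ to 3′ on the gene's strand, from RefSeq on build GRCh38.p14. DSC2 also has an inner annotated start, and only the window of its outer start is printed. DSC2 is at chr18:31102422-31102671 on the minus strand, DSG2 at chr18:31497927-31498176 on the plus strand and PERP at chr6:138107420-138107669 on the minus strand. Capitals mark a match to the YY1 core motif, CCATNTT or its reverse complement AANATGG.
DSC2: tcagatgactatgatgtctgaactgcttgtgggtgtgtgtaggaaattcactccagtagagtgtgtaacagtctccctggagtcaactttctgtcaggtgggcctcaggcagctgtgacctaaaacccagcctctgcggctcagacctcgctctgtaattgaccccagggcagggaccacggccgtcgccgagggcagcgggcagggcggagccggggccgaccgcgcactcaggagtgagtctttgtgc
DSG2: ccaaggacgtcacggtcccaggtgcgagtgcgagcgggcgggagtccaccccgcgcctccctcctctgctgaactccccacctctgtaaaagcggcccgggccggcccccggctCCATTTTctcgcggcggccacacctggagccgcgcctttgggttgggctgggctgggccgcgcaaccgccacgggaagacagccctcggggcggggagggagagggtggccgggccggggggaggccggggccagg
PERP: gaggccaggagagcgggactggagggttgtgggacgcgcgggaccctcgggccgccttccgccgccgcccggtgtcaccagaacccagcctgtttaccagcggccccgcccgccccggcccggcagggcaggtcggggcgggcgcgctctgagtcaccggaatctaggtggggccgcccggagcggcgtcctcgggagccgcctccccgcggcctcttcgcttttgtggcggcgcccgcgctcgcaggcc

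The match in DSG2, CCATTTT, lay 136 to 130 bases upstream of the start. Windows were matched for 8 of the 10 genes, all but PKP2 and PKP3, with 11 windows in all because DSC2, JUP and PKP4 have 2 annotated starts each. The core motif was in 1 of the 11 windows and in 11.6% of the 35116 windows of all genes. A motif of the grainyhead-like (GRHL) factors of epithelium, AACNGGTT or its reverse complement AACCNGTT, was in 0 of the 11 and in 1.49% of all windows. These are matches of letters, and binding was not measured here. The windows differed in base composition. DSP (78.0% G and C), PERP (77.2%), DSG2 (75.2%) and both PKP4 windows (73.2% and 71.6%) were the richest, beside a median of 58.0% over all windows. The JUP windows (63.6% and 66.0%), the inner DSC2 window (66.8%), DSC3 (60.4%) and the outer DSC2 window (59.6%) were also above that median, and only DSG3 (42.8%) was below it.

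Among the cadherins, DSC2 stood apart. DSC2, a desmocollin of simple epithelia and heart, measured by probe set TC1800009268.hg.1, was at 11.85 in siControl and 12.65 in siYY1. Its difference of 0.80 was the 86th highest of the 8844 kept genes and the 23rd highest of the 4422 brightest. An absolute difference larger than that of DSC2 was seen in 2.24% of kept genes. DSG2, the desmoglein of simple epithelia, was at 14.21 in siControl and 14.03 in siYY1. Its difference was -0.18, and 51.9% of kept genes exceeded it in absolute size. The partner cadherins thus lay on opposite sides of 0, DSC2 past the rule and DSG2 well inside it. Their differences were 0.97 apart, which makes the ratio of DSC2 to DSG2 signal 1.97-fold higher in siYY1 than in siControl.

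The cadherins of stratified epithelium were dim. DSC3 was at 4.35 in siControl and 4.50 in siYY1. DSG3, the antigen of the blistering disease pemphigus vulgaris, was at 6.42 in siControl and 5.78 in siYY1. The DSG3 difference of -0.65 has the size of a call, but both levels lay under the filter and were not shown to be above background. Among the 8843 genes under the filter, 8.94% were past 1.5-fold and 6.71% had a larger absolute difference than DSG3.

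**Figure D2:**
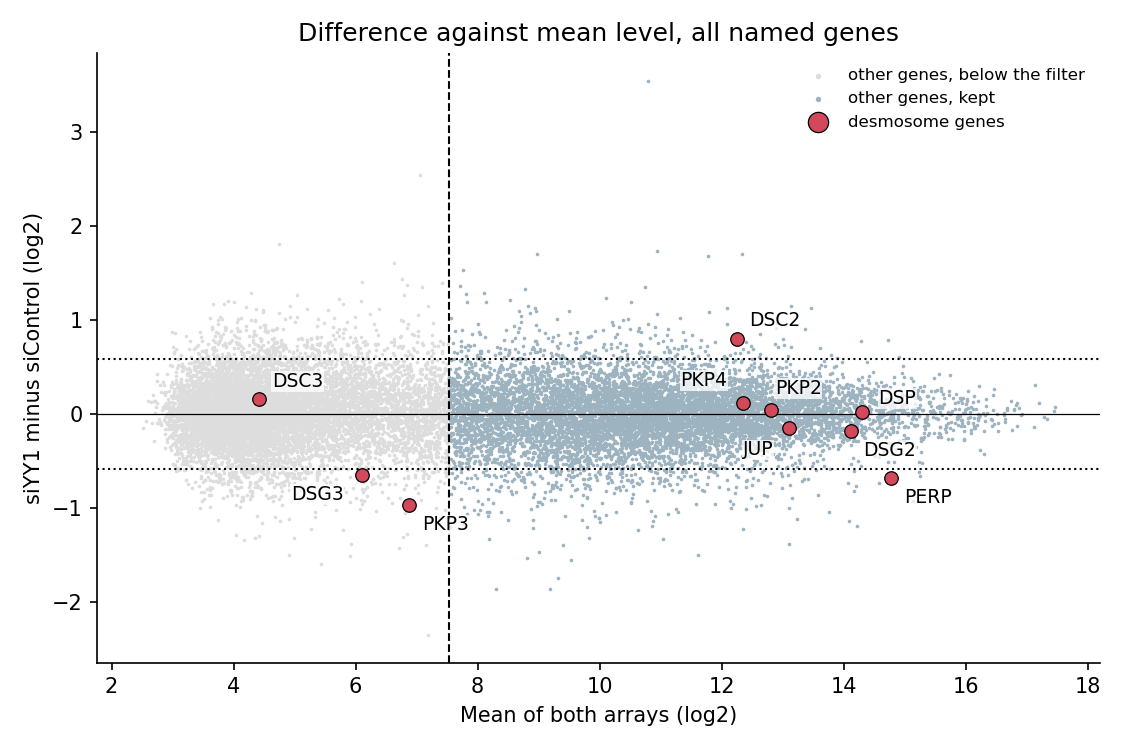
Difference between siYY1 and siControl (vertical axis, log2) against the mean of both arrays (horizontal axis, log2) for all named genes, with the 10 desmosome genes in red, the 1.5-fold rule as dotted lines and the filter as a dashed line. DSC2 (0.80) and PERP (-0.68) lie outside the dotted lines at high mean levels, DSG3 and PKP3 lie outside them left of the filter, and DSG2, JUP, DSP, PKP2 and PKP4 lie near 0.

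All desmosomal cadherin genes sit side by side on chromosome 18. In the gene order of the RefSeq table, the protein-coding genes run DSC3, DSC2, DSC1, DSG1, DSG4, DSG3 and DSG2, with CDH2 before them and TTR and B4GALT6 after them. Of the 7 cadherin genes of the cluster, DSC2 and DSG2 were kept and 5 were dim. The direct neighbours of DSC2 were DSC3 (0.16) and DSC1, which is expressed in cornified epithelia and went from 4.29 to 4.72 (0.44). DSG1 and DSG4, desmogleins of skin and hair, differed by 0.06 and -0.19. Beyond DSG2, the transthyretin gene TTR was dim on both arrays (5.54 and 5.92), and B4GALT6, a lactosylceramide synthase, was kept and went from 8.31 to 8.83 (0.52), short of the rule. CDH2, the N-cadherin gene on the other side, was at 3.99 and 3.91. Past the rule, the cluster held DSC2 alone among its kept genes. The long noncoding RNA gene DSCAS overlaps DSC2 in the gene table. No value named DSCAS was used here, and whether the probe set of DSC2 can read it was not tested.

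**Figure D3:**
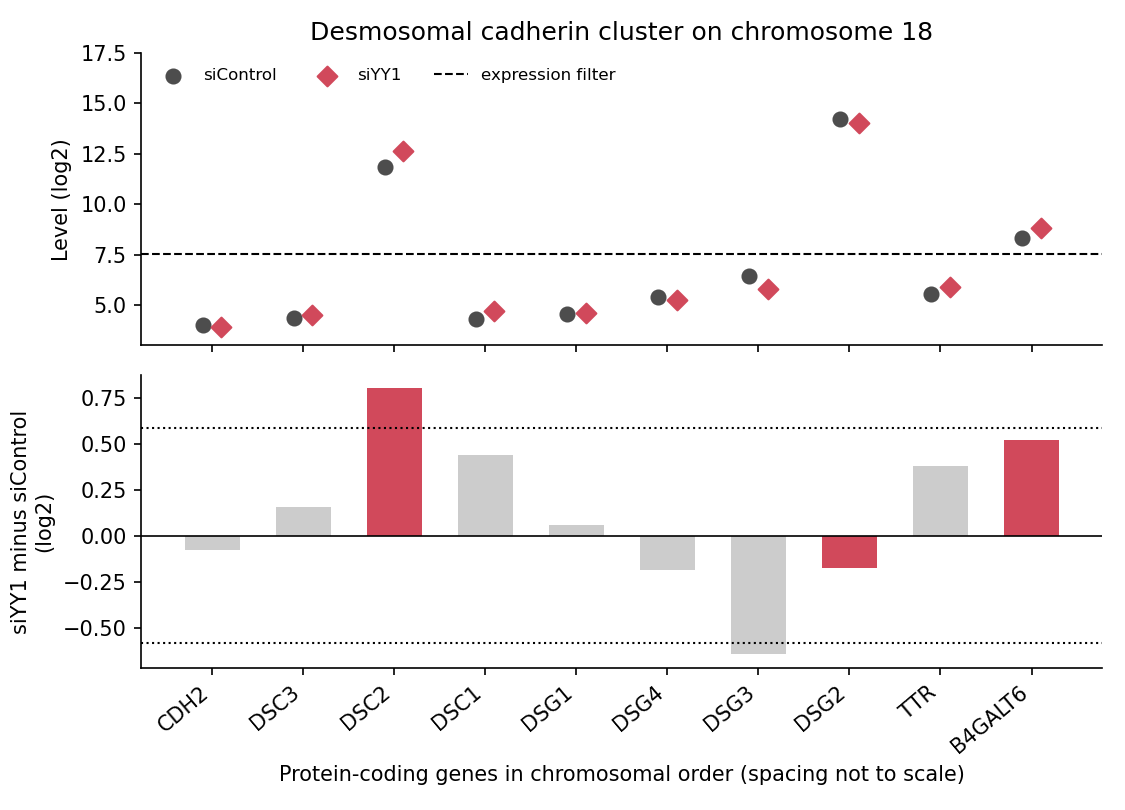
Upper panel, log2 level in siControl (grey circles) and siYY1 (red diamonds) of the protein-coding genes from CDH2 to B4GALT6 in their order on chromosome 18, with the filter as a dashed line. Lower panel, the log2 difference (red bars, kept genes; grey bars, genes below the filter) with the 1.5-fold rule as dotted lines: DSC2 is the only kept gene past it, while its neighbours DSC3 and DSC1 are at 0.16 and 0.44.

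The armadillo proteins that link the cadherins to the filaments differed little where they were bright. JUP (plakoglobin), a relative of beta-catenin found in both desmosomes and adherens junctions, was at 13.18 in siControl and 13.03 in siYY1 (-0.15). PKP2, the plakophilin of simple epithelia and heart, was at 12.79 and 12.83 (0.04). PKP4, also called p0071 and found at adherens junctions too, was at 12.29 and 12.41 (0.12). For JUP, PKP2 and PKP4 a larger absolute difference was seen in 57.6%, 89.1% and 65.8% of kept genes.

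PKP3, a plakophilin of most epithelia, was the exception. It was at 7.37 in siControl and 6.40 in siYY1, 1.96-fold lower, and its difference of -0.97 was the largest in size of the 10 genes. Both levels lay under the filter, the siControl level close to it. Of the genes under the filter, 0.973% had a larger absolute difference. The value was not shown to be above background and its size is uncertain.

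DSP (desmoplakin), the plakin that anchors keratin filaments to the junction, was at 14.29 in siControl and 14.31 in siYY1. Its difference of 0.02 was the smallest in size of the 10 genes, and 93.6% of kept genes differed by more. The siYY1 level was 102% of the siControl level for DSP, 103% for PKP2, 90.1% for JUP and 88.6% for DSG2.

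PERP, a membrane protein of the PMP22 family that is a transcriptional target of p53 and p63 and takes part in desmosome assembly, was at 15.12 in siControl and 14.44 in siYY1 (probe set TC0600013326.hg.1). Its difference of -0.68 was the 211th lowest of the kept genes and the 73rd lowest of the 4422 brightest. In absolute size, 4.14% of kept genes differed more. The siYY1 level was 62.2% of the siControl level. PERP and DSC2, the lowest and the highest of the kept members, differed from each other by 1.48. The ratio of DSC2 to PERP signal was thus 2.80-fold higher in siYY1, by this choice the largest among pairs of kept members. Of the 7 kept members, DSG2 (-0.18) was the next below PERP, and PKP4 (0.12) the next below DSC2, so no member lay close to the 1.5-fold rule on its inner side.

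Other desmosome genes were mostly dim. Of 6 on the arrays, DSC1, DSG1, DSG4, PKP1, PPL and EVPL, only EVPL (envoplakin), a plakin of the cornified envelope, was kept, at 8.40 in siControl and 8.54 in siYY1. PKP1, the plakophilin of stratified epithelia, was at 4.92 and 5.49. PPL (periplakin), the binding partner of envoplakin, was at 7.75 and 6.92, a difference of -0.83 whose siYY1 level lay under the filter, as did its mean. These plakin partners thus differed in opposite directions, with 1 of the pair below the filter.

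The neighbouring junction types were read beside the desmosome, from lists of named components. Adherens junctions join actin filaments through classical cadherins and catenins. Of their 12 kept genes, 0 were past 1.5-fold upwards and 1 downwards, and the median was 0.01. The exception was PLEKHA7, which links p120-catenin to microtubules, at 8.17 in siControl and 7.49 in siYY1 (-0.68), where the siYY1 level was under the filter. CDH1 (E-cadherin) was at 13.55 and 13.57, and CTNNB1 (beta-catenin) at 13.52 and 13.63. At the upper end was NECTIN2, an adhesion receptor, at 11.18 and 11.62 (0.44).

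Hemidesmosomes, which anchor keratin filaments to the basement membrane, had 5 kept genes, 1 of them past 1.5-fold and lower, with a median of -0.15. ITGB4, the integrin subunit that defines this junction, went from 13.32 to 12.66 (-0.66), while its partner ITGA6 differed by -0.15. DST, the plakin BPAG1, differed by -0.49 and PLEC (plectin) by 0.04. CD151, a tetraspanin of the complex, was at the upper end with 0.20.

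Keratins of simple epithelium, the filaments that DSP holds, had 4 kept genes, none past 1.5-fold, and a median of -0.17. KRT19 was at the lower end (14.67 in siControl and 14.33 in siYY1, -0.34). KRT8 was at the upper end (0.01), at 16.35 and 16.36, near the top of the deposited range, where a probe set may be saturated. Saturation was not tested. Gap junctions, which couple the cytoplasm of neighbouring cells, had 1 kept gene of 6, GJB2 (connexin 26), at 12.10 and 12.04. Across these lists and those of transcription factors, regulators and PERP relatives, 4 of 50 kept genes other than the members were past 1.5-fold. All 4 were lower in siYY1. Over all kept genes, 6.82% were past the rule, 3.04% higher and 3.78% lower. After quantile normalization OVOL2 fell short of the rule and the kinase gene SRC passed it upwards.

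**Figure D4:**
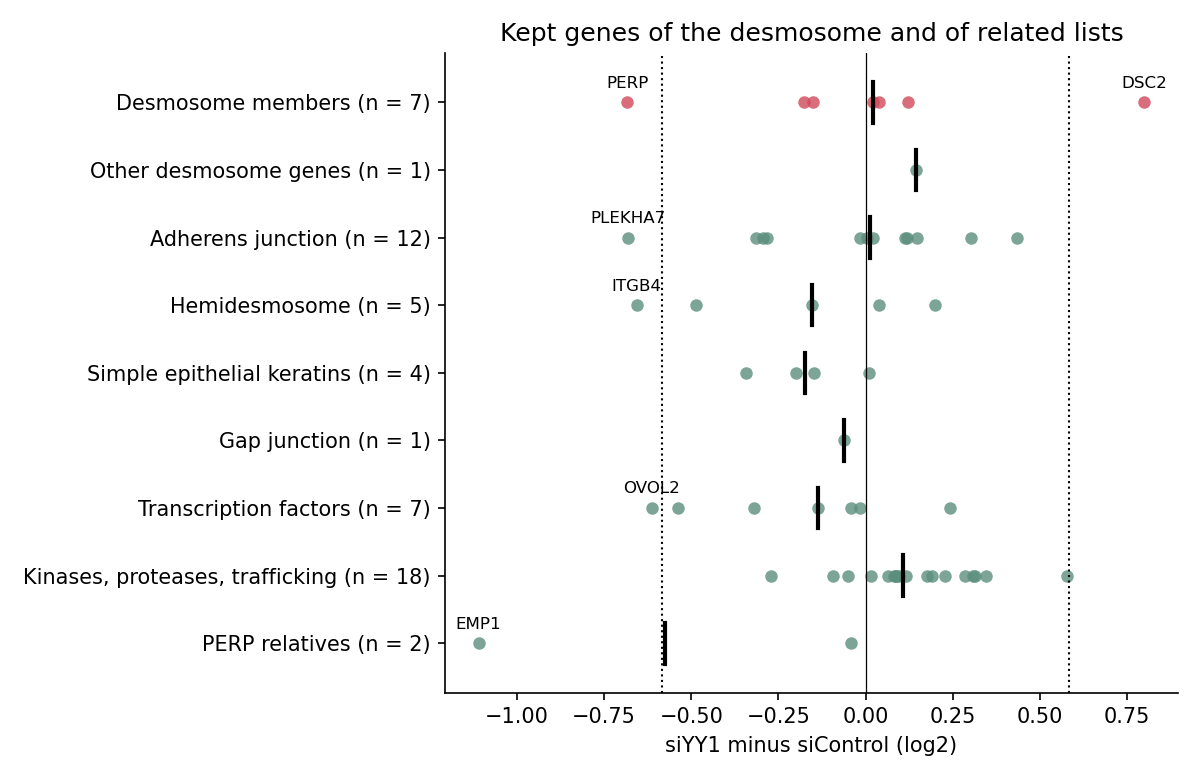
Log2 difference between siYY1 and siControl (horizontal axis) of each kept gene, 1 point per gene, in the desmosome (red, 7 genes) and in 8 related lists (green), with the median of each list as a black bar and the 1.5-fold rule as dotted lines. DSC2 is the only point past the right line, and PERP, PLEKHA7, ITGB4, OVOL2 and EMP1 lie past the left line.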

How the data were processed

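Total RNA of SW48 cells was hybridised to whole-transcript GeneChips after biotin labelling, per the labels' protocols, with 1 array per group; the titles gave the groups. The authors deposited 1 value per probe set, taken here as log2. The unit was read from the values, which ran from 2.32 to 17.97. Once sorted, the arrays matched to within 0.153. Neither the normalization nor the log base is stated in the labels. Every fold takes the values as plain log2. Precision is limited by the number of arrays.

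Of 21448 probe sets, 17709 had 1 symbol in GEO's platform annotation, 0 had more than 1, and 3739 are unnamed here. Symbols were checked through Entrez identifiers against a RefSeq table of GRCh38.p14, which altered 0 of them. Probe sets of 1 gene (20 genes, none of them a desmosome member) were averaged. Upstream windows were matched by symbol. Only the fold rule was tried on simulated data, with less noise than the spread of the real differences, and the other steps were not simulated. The members, lists and rules were chosen with earlier results of these data known. Named genes were all 10 members and, of each related list, the kept genes past 1.5-fold and those at each end, with ACTB and GAPDH. Others (such as ZEB1 and the cluster neighbours) give context and were chosen after their values were seen. The 9 alternatives were other fold thresholds, filters, normalizations and choices of probe set, with Python 3.11.15, pandas 2.3.3, numpy 2.4.6, statsmodels 0.14.6 and matplotlib 3.10.9.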

Additional observations from a re-analysis of the deposited data

How the results depend on the processing

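Of the 9 alternative settings, 6 leave the members' values as they are by construction. Over the other 3, the normalizations, every member kept its direction. DSC2 ranged from 0.79 to 0.80 and PERP from -0.70 to -0.68, while the smallest, DSP, ranged from 0.01 to 0.02. At the lower fold threshold, the members past it were 1 higher and 1 lower. That threshold was passed by 2274 kept genes (25.7%) and 10 genes of the related lists. At 2-fold there were 0 higher and 0 lower members, 84 kept genes (0.950%) and 1 related gene. Without the filter on dim genes, 3 members (PERP, DSG3 and PKP3) were past 1.5-fold and lower, and 1 (DSC2) was higher. Of all 17687 genes, 1394 (7.88%) were past the rule, 704 higher and 690 lower, and 8 related genes were past it. The median of the 10 members was then -0.06, opposite in sign to the 0.02 of the kept members, with both near 0. For scale, the median absolute difference over all kept genes was 0.18. With the filter at the 75th percentile, 204 genes (4.61%) and 2 related genes were past the rule. With lowess centring (fraction 0.3) the related genes past it numbered 5, SRC being added, and after quantile normalization it was 4 with SRC in place of OVOL2. No paired analysis was possible because each group holds 1 array. No replicate could be left out for the same reason.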

Other observations

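Of 7 kept transcription factors tied to epithelial junction genes, 1 was above 0 and 6 were below, with a median of -0.14. Over all 8844 kept genes, 4390 were below 0 and the median was 0.00. Of the 6, KLF4 (-0.02) and GRHL2 (-0.04) were near 0. OVOL2, a repressor of mesenchymal genes, was past 1.5-fold, at 10.27 in siControl and 9.66 in siYY1 (-0.61). GRHL3, a grainyhead-like factor of epithelial barrier formation, was at 12.80 and 12.26 (-0.54). EHF, an epithelial ETS factor, was at the upper end (0.24). ZEB1, a repressor of CDH1, differed by 0.82, from 6.31 to 7.14, but lay under the filter on both arrays. SNAI2 differed by -0.61, from 4.77 to 4.15, also under it.

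Of 18 kept genes for kinases, proteases and trafficking factors that act on desmosomes, 15 were above 0, with a median of 0.11, and 0 were past 1.5-fold. Over all kept genes, 4454 of 8844 were above 0 and the median was 0.00. SRC, a tyrosine kinase that phosphorylates junction proteins, was at the upper end (10.02 in siControl and 10.59 in siYY1, 0.58), just short of the rule, which it passed after quantile normalization and lowess centring. KIF5B, the kinesin-1 heavy chain, was at the lower end (-0.27). Of the ADAM proteases on this list, ADAM10 differed by 0.19, ADAM17 by 0.18, ADAM15 by 0.09 and ADAM9 by -0.05. Among the relatives of PERP, EMP1 was 2.16-fold lower, from 13.80 to 12.69, whereas EMP2 differed by -0.04.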
